A study of Mus musculus with 6 samples.

Results

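Receptors on the chondrocyte surface pass many of the signals of growth cartilage to heterotrimeric G proteins, to the second messenger cyclic AMP (cAMP) and to protein kinase A. The 90 genes described here encode this machinery: the alpha, beta and gamma subunits of G proteins, the regulators of G protein signalling (RGS), the adenylyl cyclases that make cAMP, the phosphodiesterases that break down cAMP and cGMP, and the catalytic and regulatory subunits of protein kinase A. They are the genes, among 24346 listed, whose symbols carry the root of 1 of these 7 families (Gna, Gnb, Gng, Rgs, Adcy, Pde, Prkac or Prkar) followed by a number or letters. No expression value was used to choose them. The rule also takes in members best known from other tissues, such as the photoreceptor genes Gnat1, Pde6a and Pde6b.

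The values come from RNA-seq of cartilage between the bones of the mouse cranial base. Chondrocyte layers of the spheno-occipital synchondrosis were taken from frozen sections by laser microdissection and fall into 3 FP and 3 RR libraries, numbered 11, 14 and 16 in each group. All 6 libraries share the genotype Gli1CreERT2 with Tomato flox, that is, a tamoxifen-dependent Cre recombinase made where Gli1 is expressed together with a Cre-activated red reporter, and all 6 come from mice given tamoxifen at postnatal day 3. The series sets flat against round chondrocytes, but the titles carry the codes alone, without a key, so FP and RR stay codes in the text. A layer is bulk tissue: fewer cells of a type and less RNA per cell cannot be told apart. The sources used here do not say whether the reporter guided the cutting, nor at what age the mice were taken.

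In the growth plate, parathyroid hormone-related protein binds its receptor Pth1r, whose stimulatory alpha subunit switches on adenylyl cyclase. The resulting cAMP releases the catalytic subunits of protein kinase A, and this route is known to hold chondrocytes back from hypertrophy in mice. Other alpha subunits lower cAMP or open the phospholipase C route, while RGS proteins end the signal by speeding GTP hydrolysis on alpha subunits.

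The levels are FPKM as deposited, fragments scaled by transcript length and by library, so levels of different genes can be set side by side. How the libraries were scaled is not stated, and depth read from these values rests on that scaling. Steps between low values put 1 fragment of a 2000 bp transcript at 0.128 to 0.252 FPKM in FP and 0.174 to 0.296 FPKM in RR, and the deepest library, FP 11, was 2.32 times as deep as RR 14, the shallowest. RR 14 also stood apart on the first principal component of all genes, at 76.9 against 9.11 to 19.5 in the other RR libraries. The summed level of 7 chondrocyte markers, at 49025 to 82266 FPKM in FP and 42774 to 88272 FPKM in RR, is mostly Col2a1 and overlapped between groups. Within the list 0 genes passed the test, but 4 of 7 had an unadjusted p under 0.05 in limma (Acan, Sox9, Matn3 and Col11a1, all FP libraries above all RR libraries), and the median log2 difference was 0.94. That of 8 prehypertrophic and hypertrophic markers was 1084 to 1345 FPKM in FP and 128 to 190 FPKM in RR, and that of 6 resting chondrocyte markers 192 to 291 FPKM in FP and 2760 to 3661 FPKM in RR. Of the hypertrophic list 6 of 8 genes passed the test as higher in FP, and of the resting list 6 of 6 as lower. Skeletal muscle markers summed to 437 to 542 FPKM in FP and 270 to 812 FPKM in RR, a sum led by Tnni2. Of these 10 genes 0 passed, but 9 had a positive log2 difference, also after the rescaling described further on, with a median of 0.92. An unadjusted p under 0.05 in limma was found for 2 (Myh8 and Acta1), and for 10.3% of all tested genes. Neuron and glia markers, at 17.5 to 44.0 FPKM in FP and 11.7 to 38.3 FPKM in RR, overlapped between groups, with a median log2 difference of 0.02. Osteoblast and osteocyte markers summed to 236 to 885 FPKM in FP and 227 to 1646 FPKM in RR, and blood markers to 121 to 146 FPKM in FP and 54.5 to 473 FPKM in RR. Sums of osteoclast and fibroblast markers overlapped as well, and 0 genes of these lists passed. Col1a1 (1077 FPKM) and S100a9 (232 FPKM) were highest in RR 11, and Ctsk was highest in library 11 of each group. The part of these marker differences in the members' values was not tested.

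No member of the machinery passed the test between FP and RR. In limma on log2(FPKM + 1), with p-values adjusted over the 14789 genes that averaged 1 FPKM or more, 0 of the 68 tested members were higher and 0 lower in FP at an adjusted p under 0.05, where 0.967% of all tested genes were called, 82 higher (0.554%) and 61 lower (0.412%). At an unadjusted p under 0.05 stood 7 of 68 members, or 10.3%, the same share as the 10.3% of all tested genes. Of these, 4 were higher in FP (Gna12, Gnb4, Rgs3 and Gng10), where 5.77% of all tested genes were, and 3 lower in FP (Pde7b, Gng7 and Adcy9), where 4.55% of all tested genes were. Gng7, with a mean of 0.881 FPKM in FP and 2.58 FPKM in RR, reached the filter only through RR. The median log2 difference, FP minus RR, was -0.02 over the members and 0.02 over all tested genes. A log2 difference over 1 in size was seen for 2 of 68 members, Gna12 and Gng10, which is 2.94% against 8.06% of all tested genes. For 22 of 68 members (32.4%) the 95% interval of the log2 difference lay within 1 on either side of 0, against 32% of all tested genes. For the other members a difference of 2-fold or more is thus within the interval, so a missed threshold does not show that FP and RR were alike. Nothing in the labels says that libraries came from separate mice, so the p-values cover no more than the spread among these 6 samples, part of which may be technical. The fit does not pair same-numbered libraries. With the number as a random block 2 members passed, as given further on. After each library was rescaled without its most abundant genes, the median log2 difference of all tested genes moved to -0.16 and that of the members to -0.19. Below, that scaling is named where it changes which members separate. Log2 differences of single genes are on the deposited scale. The sign turned for 12 of the 68 members, none with a log2 difference over 0.18 in size.

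The remaining 22 members had a mean under 1 FPKM and were not tested. The highest value of any of them in any library was 2.66 FPKM (Adcy10, in RR 14), and 11 of them were listed at 0 in at least 1 library. A 0 in these files may stand for an estimate that failed, since the ribosomal protein gene Rpl26 had 45.1 FPKM in FP 16 and 0 in each of the other 5 libraries. Of the untested members, Pde9a, a cGMP-specific phosphodiesterase, was listed at 1.73, 0.738 and 2.16 FPKM in FP 11, 14 and 16, against 0.377, 0.574 and 0.338 FPKM in RR 11, 14 and 16. Adcy7 stood at 0.884, 0.799 and 0.526 FPKM in FP, against 1.53, 1.11 and 1.04 FPKM in RR. These pairs of groups did not overlap, and the pair of genes was named after their values were seen. At a few fragments per gene, such levels are near the limit of what the depth resolves.

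**Figure D1:**
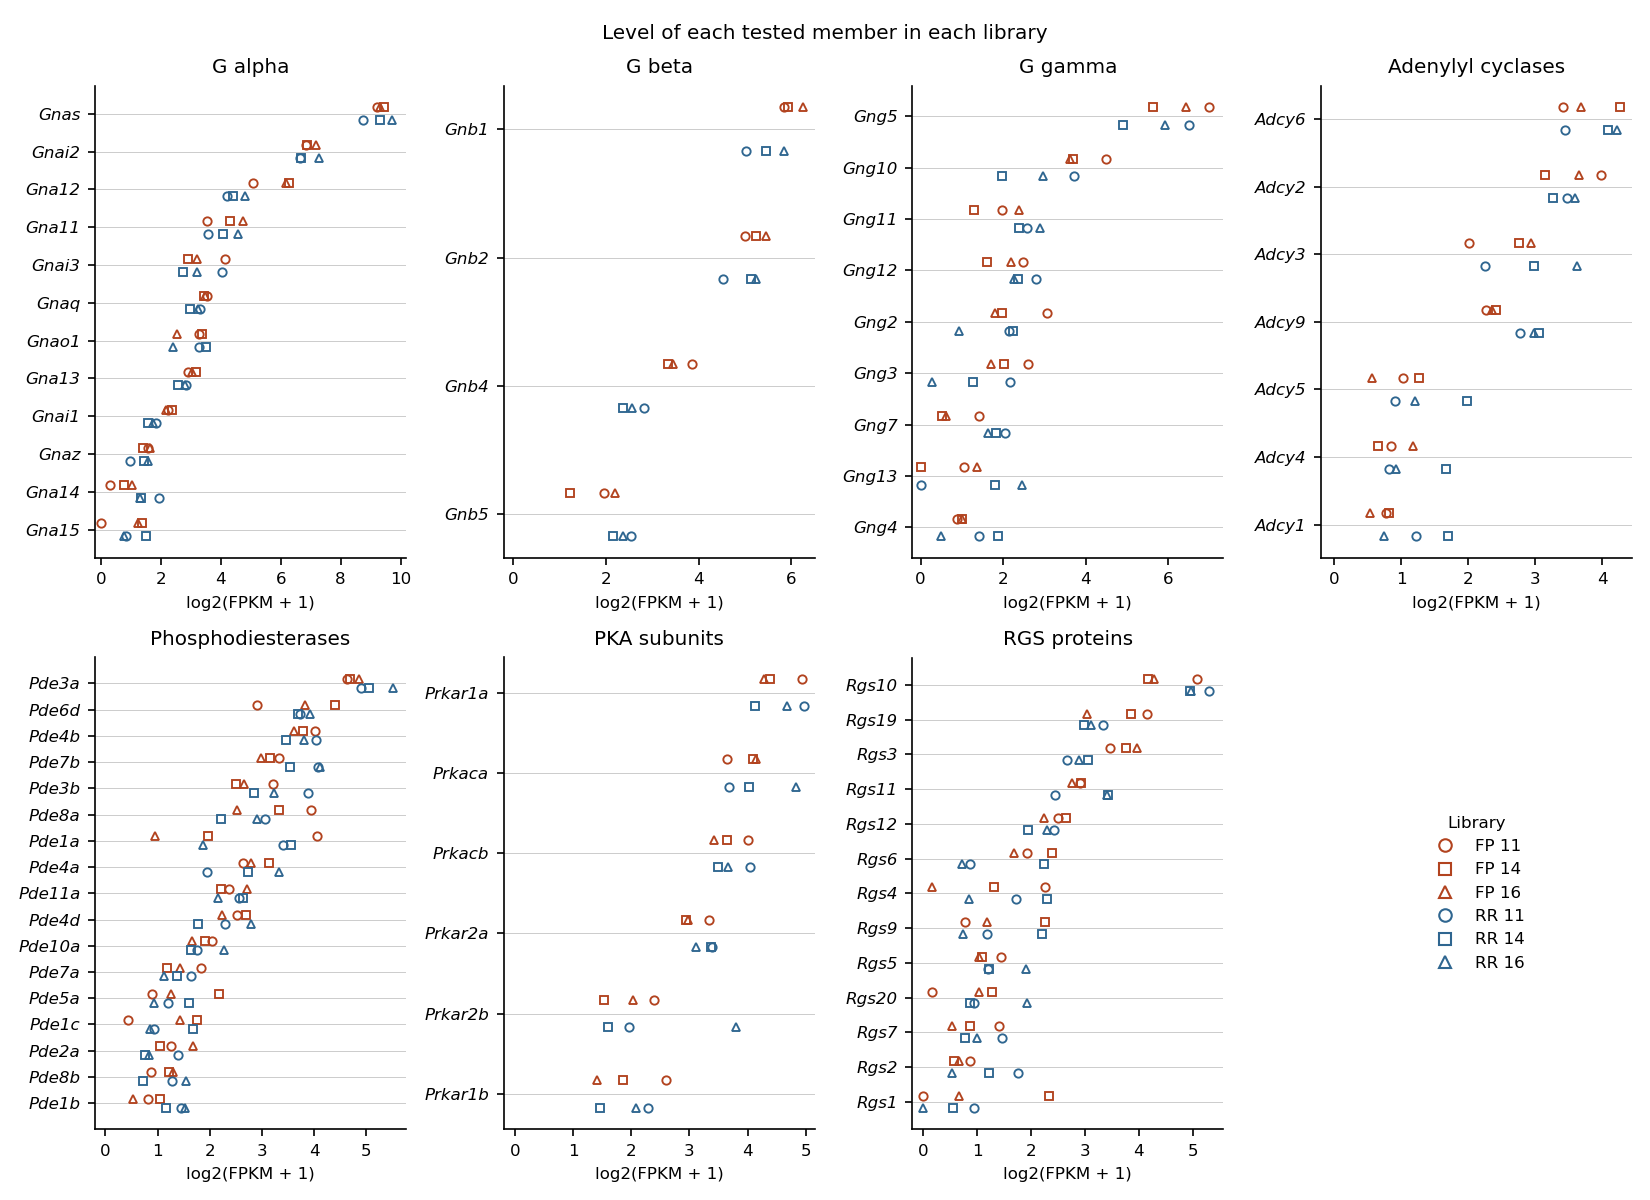
Level of each of the 68 tested members in each library, as log2(FPKM + 1) on the horizontal axis, with FP libraries (red) drawn above RR libraries (blue) in each row and genes ordered by mean level within a family. Gnas lies far above every other member, and for 55 of the 68 genes the red and blue symbols overlap.

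The alpha subunits define the 4 classes of G proteins, and in both layers the stimulatory class dominated. Gnas, which encodes the stimulatory alpha subunit, had 590, 696 and 640 FPKM in FP 11, 14 and 16, against 426, 633 and 831 FPKM in RR 11, 14 and 16. The RR libraries spanned a range that holds all the FP values. Its mean level ranked 86 among all 24346 genes, and it made up 72.1% of the summed FPKM of the alpha subunits in FP and 75.7% in RR. The log2 difference was 0.08 ± 0.34 (SE, 95% interval -0.69 to 0.85, limma adjusted p = 0.974). After the rescaling it turned negative, with overlapping values of 568, 663 and 562 FPKM in FP and 489, 759 and 779 FPKM in RR. Gnas (mm10 chr2:174284320-174346744, plus strand) is an imprinted locus with several first exons that a single value per gene does not tell apart, and its exons share 988 bp with those of Nespas on the other strand. Nespas had 5.63, 6.94 and 6.06 FPKM in FP, against 3.77, 9.65 and 15.7 FPKM in RR, far below Gnas in every library. Whether counting used the strand is not stated, so reads from the shared stretch cannot be told apart.

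Alpha subunits of the inhibitory class lower cAMP, and Gnai2 was the main one here. It stood at 115, 117 and 145 FPKM in FP and 98.2, 100.5 and 155 FPKM in RR, with overlapping groups and a log2 difference of 0.11 ± 0.29 (SE), which turned negative after the rescaling. The ratio of Gnas to Gnai2 within a library was 5.14, 5.97 and 4.41 in FP 11, 14 and 16, against 4.34, 6.30 and 5.35 in RR 11, 14 and 16, so the balance of stimulatory to inhibitory subunit overlapped too. Gnai3 followed the library number and not the group, at 16.7, 6.41 and 8.18 FPKM in FP and 15.4, 5.73 and 8.20 FPKM in RR. Gnai1 was the one member of its class whose groups separated, at 3.70, 4.13 and 3.47 FPKM in FP against 2.58, 1.96 and 2.32 FPKM in RR. Its log2 difference was 0.54 ± 0.26 (SE, 95% interval -0.06 to 1.14, limma adjusted p = 0.551).

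The G12 class of alpha subunits, Gna12 and Gna13, held the largest log2 difference of any tested member. Gna12 had 32.7, 77.2 and 71.3 FPKM in FP 11, 14 and 16, against 17.6, 20.03 and 26.8 FPKM in RR 11, 14 and 16. All FP libraries lay above all RR libraries, with FP 11 nearest to the RR range. The means were 60.4 ± 24.2 FPKM in FP and 21.5 ± 4.80 FPKM in RR (SD, n = 3 each), a 2.81-fold ratio. The log2 difference was 1.38 ± 0.37 (SE, 95% interval 0.54 to 2.22), with an unadjusted p of 0.00507 in limma and an adjusted p of 0.189, short of the threshold. Gna12 (mm10 chr5:140758408-140830431, minus strand) shares 456 bp of exon with Amz1 on the other strand, and Amz1 was at 0.650, 0 and 0.675 FPKM in FP and 0.847, 2.15 and 0 FPKM in RR, at most 2.15 FPKM in any library.

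Gna13, the other alpha subunit of this class, stood at 6.46, 7.95 and 7.21 FPKM in FP and 6.14, 4.98 and 5.99 FPKM in RR. The groups were separate but close, with a log2 difference of 0.29 ± 0.24 (SE), and they overlapped after the rescaling. The ratio of Gna12 to Gna13 within a library, chosen after the values were seen, was 5.06, 9.72 and 9.89 in FP, against 2.86, 4.02 and 4.48 in RR. Summed over both genes the class reached 39.2, 85.2 and 78.5 FPKM in FP, against 23.7, 25.0 and 32.8 FPKM in RR, and its mean share of all alpha subunit FPKM was 7.46% in FP and 3.37% in RR. The sums, like the shares, did not overlap between groups, and the rescaled sums did not either.

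Of the Gq class, which activates phospholipase C, Gna11 and Gnaq carried most of the level. Gna11 stood at 10.7, 18.9 and 25.8 FPKM in FP and 10.9, 15.7 and 22.7 FPKM in RR, with library 11 lowest and library 16 highest in both groups. Gnaq was even across libraries, at 10.5, 9.87 and 10.2 FPKM in FP against 8.97, 6.88 and 8.46 FPKM in RR, with separate groups and a log2 difference of 0.30 ± 0.24 (SE, 95% interval -0.24 to 0.85). After the rescaling its groups overlapped. Gna14, the neighbour of Gnaq on chromosome 19, lay the other way, at 0.217, 0.720 and 1.05 FPKM in FP against 2.87, 1.51 and 1.48 FPKM in RR (log2 difference -0.83 ± 0.41, SE, limma adjusted p = 0.558). The summed level of the Gq class overlapped between groups, at 21.4 to 38.4 FPKM in FP and 23.5 to 33.4 FPKM in RR. Across the 12 tested alpha subunits, 10 had a positive and 2 a negative log2 difference, but 5 were positive and 7 negative after the rescaling.

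**Figure D2:**
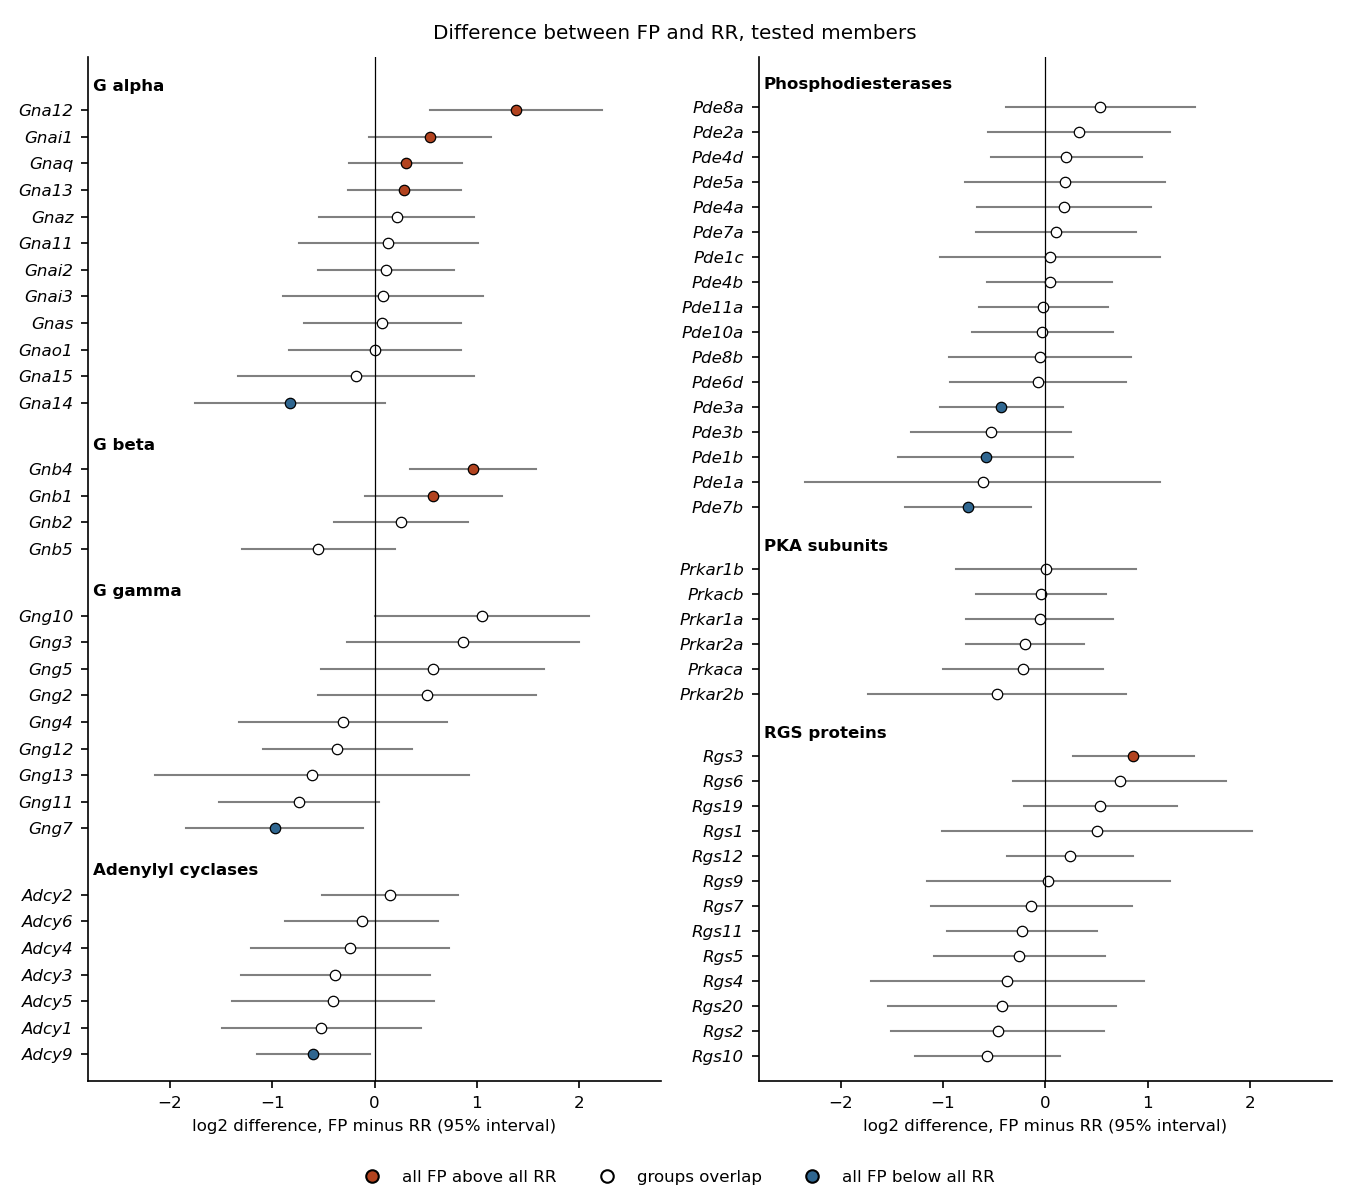
Log2 difference of each of the 68 tested members, FP minus RR on the log2(FPKM + 1) scale, with its 95% interval, by family. Filled circles mark the 13 members whose libraries did not overlap between groups, and Gna12 at 1.38 and Gng7 at -0.98 are the ends of the range.

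Groups that did not overlap were found for 13 of the 68 tested members (19.1%), against 16% of all tested genes. All FP libraries lay above all RR libraries for 7 members (10.3%, against 8.74% of all tested genes): Gna12, Gna13, Gnai1, Gnaq, Gnb1, Gnb4 and Rgs3. All FP libraries lay below for 6 members (8.82%, against 7.28%): Adcy9, Gna14, Gng7, Pde1b, Pde3a and Pde7b. Both shares are near the background. Among those below, Gna14, Gng7 and Pde1b averaged 0.664, 0.881 and 0.757 FPKM in FP and 1.95, 2.58 and 1.62 FPKM in RR. These genes reached the filter of 1 FPKM only through RR, where they are high. After the rescaling 5 members lay above and 8 below, and 11 of the 13 stood apart in both, with Gna13 and Gnaq lost and Gnb5 and Gng11 gained among those below. On the deposited scale, FP lay above RR for 4 of 12 tested alpha subunits, 2 of 4 beta subunits and 1 of 13 RGS genes. It lay below for 1 of 7 cyclases, 3 of 17 phosphodiesterases, 1 of 12 alpha and 1 of 9 gamma subunits. With both total shares near the background, these counts are no result about a family.

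Beta and gamma subunits form a dimer that holds the resting alpha subunit and signals on its own once released. Among beta subunits, Gnb1 had the highest level, at 55.9, 60.2 and 75.2 FPKM in FP and 31.4, 42.7 and 55.9 FPKM in RR, so that the lowest FP library and the highest RR library met. Gnb2 was next, at 30.8, 36.6 and 42.9 FPKM in FP and 22.2, 34.1 and 36.9 FPKM in RR, with overlapping groups. Gnb4 (mm10 chr3:32580332-32616585, minus strand) had 13.6, 9.16 and 9.86 FPKM in FP, against 6.05, 4.19 and 4.94 FPKM in RR. Here all FP libraries lay well above all RR libraries. The means of Gnb4 were 10.9 ± 2.37 FPKM in FP and 5.06 ± 0.939 FPKM in RR (SD, n = 3 each), 2.15-fold, with a log2 difference of 0.96 ± 0.27 (SE, 95% interval 0.35 to 1.58) and a limma adjusted p of 0.211. Gnb5, a divergent beta subunit that pairs with RGS proteins of the R7 class, was at 2.91, 1.36 and 3.62 FPKM in FP and 4.82, 3.43 and 4.20 FPKM in RR. Summed over the 5 beta genes the level was 103, 108 and 132 FPKM in FP, against 64.7, 84.8 and 102 FPKM in RR, with FP 11 just above RR 16, and the rescaled sums overlapped.

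Gamma subunits anchor the dimer to the membrane by a lipid tail, and Gng5 made up 72.0% of their summed FPKM in FP and 65.6% in RR. It varied with the library number more than with the group, at 125, 48.1 and 84.4 FPKM in FP and 89.4, 28.8 and 59.5 FPKM in RR. In each group library 11 was highest and library 14 lowest. Gng10 (mm10 chr4:59035088-59041903, plus strand) had 21.6, 12 and 11.3 FPKM in FP, against 12.2, 2.91 and 6.86 FPKM in RR. RR 11 lay within the FP range, and the log2 difference was 1.05 ± 0.46 (SE, 95% interval 0.01 to 2.1, limma adjusted p = 0.480). Gng7 (mm10 chr10:80948624-81014945, minus strand), the gamma subunit known for cAMP signalling in the striatum, was low and went the other way, at 1.68, 0.435 and 0.530 FPKM in FP against 3.11, 2.53 and 2.09 FPKM in RR. All FP values of Gng7 lay below all RR values, with a log2 difference of -0.98 ± 0.38 (SE, 95% interval -1.84 to -0.11, limma adjusted p = 0.414). Gng11, at 2.90, 1.44 and 4.22 FPKM in FP and 4.97, 4.20 and 6.44 FPKM in RR, missed separation by FP 16 and RR 14. Gng3, best known from neurons, had overlapping values of 2.24 to 5.08 FPKM in FP and 0.210 to 3.51 FPKM in RR.

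**Figure D3:**
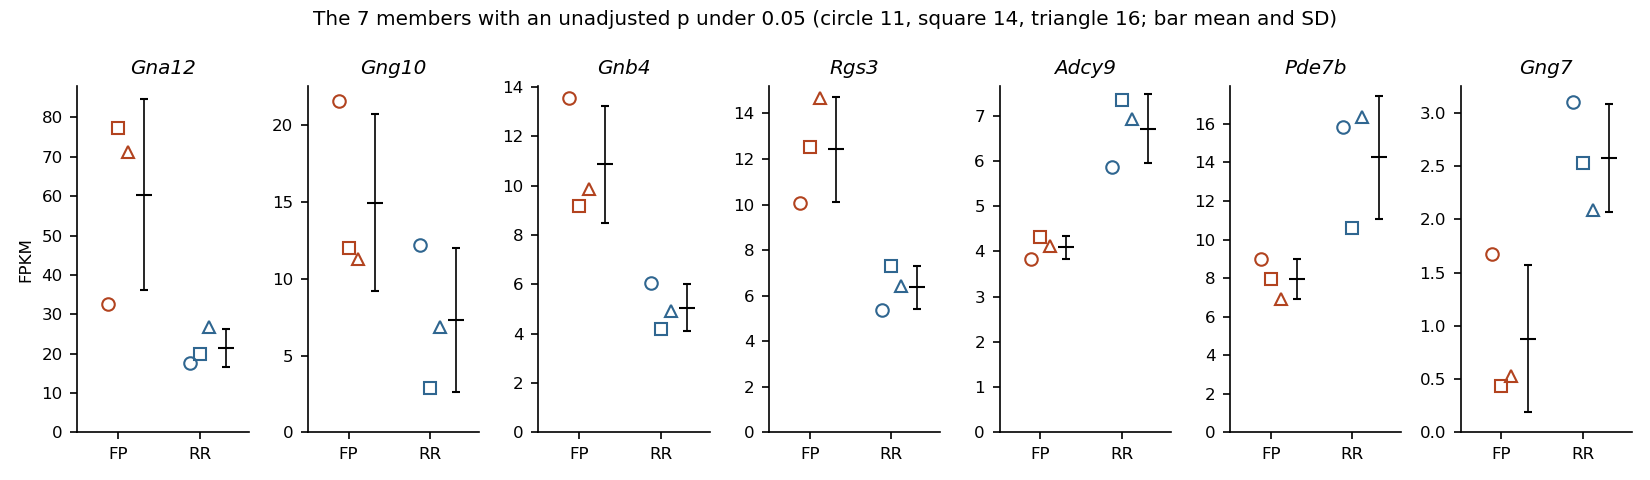
FPKM of the 7 members with an unadjusted p under 0.05, by library (circle 11, square 14, triangle 16), with the mean and SD of each group and axes that start at 0. Gna12, Gng10, Gnb4 and Rgs3 lie higher in FP and Adcy9, Pde7b and Gng7 lower, and Gng10 is the one of the 7 whose groups overlap.

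RGS proteins are the brakes of the system, and Rgs10 and Rgs3 were among the leading RGS genes. Rgs10, a member of the R12 class that acts on inhibitory alpha subunits, was at 32.9, 17 and 18.4 FPKM in FP and 38.5, 30.1 and 30.4 FPKM in RR. FP 11 lay within the RR range, and the log2 difference was -0.57 ± 0.31 (SE, 95% interval -1.28 to 0.14, limma adjusted p = 0.622). Rgs3 (mm10 chr4:62559847-62704001, plus strand), of the R4 class that acts on inhibitory and Gq alpha subunits, had 10.1, 12.5 and 14.7 FPKM in FP, against 5.39, 7.29 and 6.42 FPKM in RR. All FP libraries of Rgs3 lay above all RR libraries. Its means were 12.4 ± 2.31 FPKM in FP and 6.37 ± 0.953 FPKM in RR (SD, n = 3 each), 1.95-fold, and its log2 difference was 0.86 ± 0.26 (SE, 95% interval 0.27 to 1.45) with a limma adjusted p of 0.257.

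Rgs3 made up 17.4% of the summed FPKM of RGS genes in FP and 8.44% in RR, and Rgs10 30.1% in FP and 43.6% in RR. The ratio of Rgs3 to Rgs10 within a library, chosen after the values were seen, was 0.306, 0.737 and 0.797 in FP, against 0.140, 0.242 and 0.211 in RR, without overlap. The summed level of all RGS genes overlapped, at 61.2 to 87.5 FPKM in FP and 70.9 to 78.3 FPKM in RR. Rgs19, of the RZ class, was at 16.7, 13.4 and 7.27 FPKM in FP and 9.10, 6.91 and 7.71 FPKM in RR, with FP 16 inside the RR range. Rgs6, of the R7 class, overlapped as well, at 2.21 to 4.28 FPKM in FP and 0.649 to 3.74 FPKM in RR.

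The small R4 genes Rgs2, Rgs4 and Rgs5, which respond to hormones in many cells, stayed under 4 FPKM in every library. Rgs2, which acts mainly on Gq, stood at 0.821, 0.489 and 0.597 FPKM in FP and 2.37, 1.33 and 0.449 FPKM in RR. Rgs4 ranged from 0.122 to 3.79 FPKM in FP and from 0.805 to 3.90 FPKM in RR, and Rgs5, also a marker of pericytes, from 1.04 to 1.72 FPKM in FP and from 1.31 to 2.74 FPKM in RR. The endothelial and pericyte marker list, which holds Rgs5, summed to 127 to 160 FPKM in FP and 77.5 to 136 FPKM in RR, but that sum is mostly Cspg4, which cartilage also makes. Of its 10 genes 8 had a negative log2 difference, 5 with quantile normalization, and the median was -0.19. Of the list, 2 genes had an unadjusted p under 0.05 in limma, and they went opposite ways. Pdgfrb, a pericyte receptor, stood at 4.65, 5.63 and 4.76 FPKM in FP, against 14.2, 11.4 and 12 FPKM in RR. Cspg4 stood at 112, 127 and 144 FPKM in FP, against 53.9, 59.0 and 105 FPKM in RR. Several RGS genes lie next to each other, since Rgs2, Rgs13, Rgs1, Rgs21 and Rgs18 follow each other on chromosome 1, and so do Rgs8 with Rgs16 and Rgs5 with Rgs4. Of these 9 neighbours, Rgs2, Rgs1, Rgs5 and Rgs4 reached the mean of 1 FPKM needed for a test, and the groups of all 4 overlapped.

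Adenylyl cyclases turn ATP into cAMP and differ in how calcium and beta-gamma dimers modulate them. Adcy6, which calcium inhibits, and Adcy2, which beta-gamma dimers stimulate, were the main cyclases. Adcy6 had 9.70, 18.2 and 11.9 FPKM in FP and 9.88, 15.9 and 17.7 FPKM in RR, and Adcy2 had 14.9, 7.88 and 11.6 FPKM in FP and 10.1, 8.65 and 11.1 FPKM in RR. Both overlapped, with log2 differences of -0.13 ± 0.33 (SE) for Adcy6 and 0.15 ± 0.29 (SE) for Adcy2. Adcy9 (mm10 chr16:4287529-4420498, minus strand), a widely expressed cyclase with little response to forskolin, was even within each group, at 3.82, 4.32 and 4.11 FPKM in FP against 5.87, 7.34 and 6.92 FPKM in RR. All FP libraries lay below all RR libraries, the means were 4.08 ± 0.248 FPKM in FP and 6.71 ± 0.760 FPKM in RR (SD, n = 3 each), and the log2 difference was -0.60 ± 0.24 (SE, 95% interval -1.15 to -0.04, limma adjusted p = 0.444). Of the 7 tested cyclases, 6 had a negative log2 difference, with a median of -0.38, where 7155 of all 14789 tested genes were negative. Adcy1, Adcy4 and Adcy5 averaged 0.637, 0.876 and 0.980 FPKM in FP and 1.42, 1.28 and 1.71 FPKM in RR. They reached the filter only through RR, so their signs lend no support to a shared direction. Without RR 14, 5 cyclases were tested, with a median of -0.09. After the rescaling, which moved the median of all tested genes to -0.16, all 7 were negative. Adcy3, known from olfactory cilia, had 3.06, 5.74 and 6.65 FPKM in FP and 3.75, 6.93 and 11.3 FPKM in RR, and Adcy1 and Adcy5 stayed under 3 FPKM in every library. The summed level of the family was 36.0 to 40.2 FPKM in FP and 35.4 to 51.9 FPKM in RR.

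Phosphodiesterases end the cAMP signal, some of them specific for cAMP and others also for cGMP. Pde3a, which hydrolyses both nucleotides and is inhibited by cGMP, had the highest level, at 23.9, 24.7 and 27.9 FPKM in FP against 28.9, 32.3 and 44.6 FPKM in RR. The groups were separate by a small margin, with a log2 difference of -0.43 ± 0.26 (SE, 95% interval -1.03 to 0.17, limma adjusted p = 0.671). Pde7b (mm10 chr10:20398004-20725078, minus strand), specific for cAMP, had 8.99, 7.93 and 6.92 FPKM in FP, against 15.8, 10.6 and 16.4 FPKM in RR. All FP libraries of Pde7b lay below all RR libraries, with RR 14 nearest. Its means were 7.95 ± 1.04 FPKM in FP and 14.3 ± 3.18 FPKM in RR (SD, n = 3 each), a ratio of 0.557, and its log2 difference was -0.75 ± 0.27 (SE, 95% interval -1.37 to -0.14, limma adjusted p = 0.361). Its close relative Pde7a was at 1.28 to 2.58 FPKM in FP and 1.19 to 2.11 FPKM in RR. The ratio of Pde7b to Pde7a, chosen after the values were seen, was 3.49, 6.21 and 4.12 in FP, against 7.5, 6.73 and 13.8 in RR.

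The Pde4 genes encode the cAMP-specific enzymes that rolipram inhibits, and mutations of PDE4D cause acrodysostosis, a human skeletal disorder. Pde4b stood at 15.1, 12.7 and 11.3 FPKM in FP and 15.4, 9.94 and 13.0 FPKM in RR, and Pde4d at 4.75, 5.49 and 3.72 FPKM in FP and 3.89, 2.42 and 5.89 FPKM in RR. Both overlapped between groups. Pde6d, which despite its name is known as a carrier of lipid-modified proteins, ran from 6.47 to 20.1 FPKM in FP and from 12 to 14.1 FPKM in RR. Pde1a had the widest interval among the named phosphodiesterases, with 15.7, 2.92 and 0.937 FPKM in FP and 9.54, 10.7 and 2.68 FPKM in RR, and a 95% interval of the log2 difference from -2.34 to 1.12. Pde1b was low, at 0.763, 1.06 and 0.446 FPKM in FP against 1.74, 1.24 and 1.88 FPKM in RR.

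Summed by substrate, the 8 cAMP-specific genes gave 52.2, 45.9 and 36.1 FPKM in FP and 48.8, 35.8 and 54.0 FPKM in RR, with overlap. The 8 genes whose enzymes take both nucleotides gave 57.7, 43.2 and 46.1 FPKM in FP, against 63.7, 60.7 and 66.4 FPKM in RR, all FP sums below all RR sums. Among 22 such classes of members, the sums of 5 did not overlap: FP lay above RR for the G12 class, the beta subunits and the R4 class of RGS genes, and below RR for Adcy9 alone as a class and for the phosphodiesterases of both nucleotides. The R4 sum was 19.3, 21.4 and 18.9 FPKM in FP, against 14.9, 17.4 and 11.8 FPKM in RR. After the rescaling the sums of the beta subunits and of the R4 class overlapped, while those of the G12 class, Adcy9 and the phosphodiesterases of both nucleotides stayed separate in the same direction. The sums of the inhibitory class of alpha subunits and of the catalytic subunits of protein kinase A, which overlap as deposited, then lay below RR in all FP libraries, so that 1 class stood above and 4 below, against 3 above and 2 below on the deposited scale. The classes follow textbook groupings and the sums carry no test. Of single genes, 16% of all tested ones did not overlap between groups. The 5 sums are Adcy9 itself or are led by Gna12, Gnb1, Rgs3 and Pde3a. All of these are among the 13 separate members above, so the sums add no independent result.

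**Figure D4:**
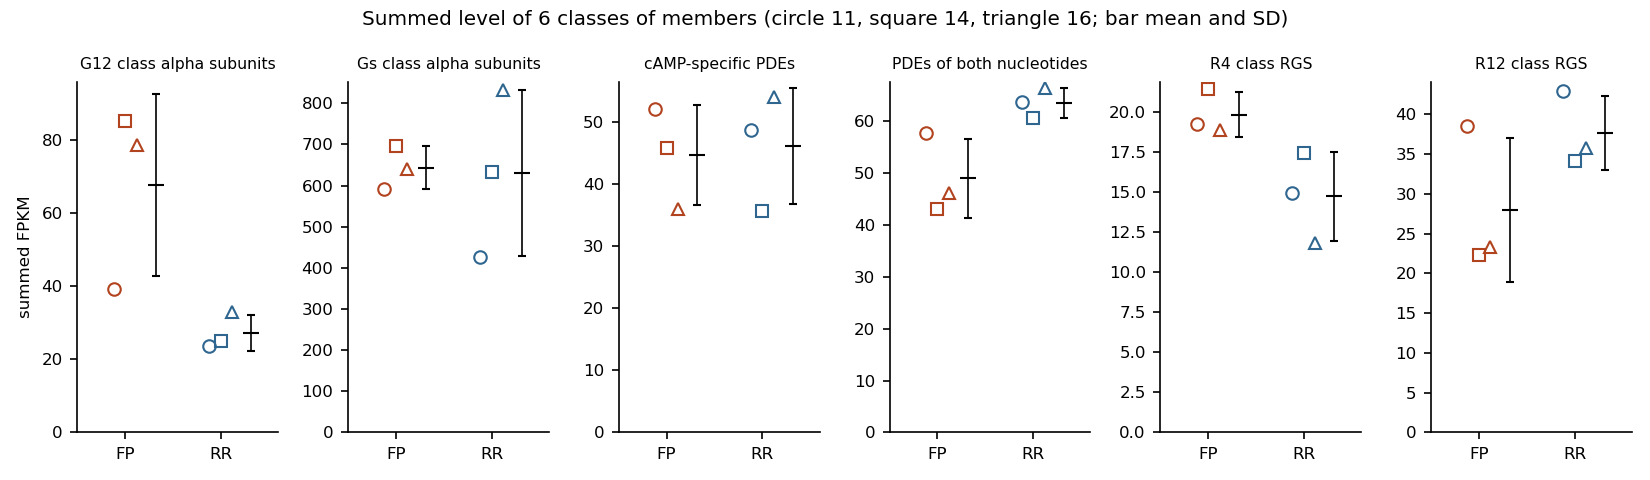
Summed FPKM of 6 classes of members by library (circle 11, square 14, triangle 16), with the mean and SD of each group and axes that start at 0. The G12 alpha subunits lie higher in FP and the phosphodiesterases of both nucleotides lower, the R4 RGS genes lie higher in FP on the deposited scale but overlap once rescaled, and the sums of the stimulatory alpha subunits, the cAMP-specific phosphodiesterases and the R12 RGS genes overlap.

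Protein kinase A is a complex of catalytic subunits held inactive by regulatory subunits until cAMP binds. All 6 subunit genes were tested, all 6 overlapped between groups, and the smallest adjusted p in limma was 0.849. Prkar1a, the regulatory subunit mutated in human acrodysostosis and Carney complex, led the family at 29.6, 19.96 and 18.6 FPKM in FP and 30.6, 16.4 and 24.6 FPKM in RR. Its log2 difference of -0.06 ± 0.32 (SE) had a 95% interval of -0.78 to 0.66. The catalytic subunit genes Prkaca, at 11.5, 16 and 16.7 FPKM in FP and 11.8, 15.3 and 27.4 FPKM in RR, and Prkacb, at 15.1, 11.5 and 9.76 FPKM in FP and 15.6, 10.3 and 11.7 FPKM in RR, were of similar level. The ratio of Prkaca to Prkacb was lowest in library 11 and highest in library 16 of each group, at 0.761, 1.39 and 1.71 in FP, against 0.755, 1.5 and 2.35 in RR. Prkar2a was at 6.68 to 9.13 FPKM in FP and 7.63 to 9.41 FPKM in RR. Prkar2b had 4.24, 1.89 and 3.08 FPKM in FP and 2.89, 2.03 and 13.0 FPKM in RR, where RR 16 lay far above the other 5 libraries. Of the 6 genes, 4 had a 95% interval within 1 of 0 on the log2 scale.

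Protein kinase A acts on transcription through CREB, which binds the cAMP response element, spelled TGACGTCA and the same on both strands. In RefSeq promoter windows (GRCm38.p6, from 250 bases before to 50 bases after each start), 69 of the 90 members matched, with 119 windows. The full element occurred in 2 of these 119 windows (1.68%), against 588 of 32851 windows of all genes (1.79%). Both are windows of Prkar1a, the one member found with a full element. Whether the 2 windows hold the same copy was not examined. The copy that lies well before a start site is printed here. It lies on the plus strand of chr11:109650889-109650918, starting 49 bases before a start site, with the element in capitals.
Prkar1a: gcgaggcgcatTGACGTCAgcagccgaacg
The shorter TGACG, read on both strands and contained in the full element, occurred in 28 of the 119 windows (23.5%), of 24 members, against 20.8% of all windows. Such matches describe the letters in these windows and say nothing of binding.

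The order of library numbers was alike in both groups for about the same share of members as of all tested genes. Some genes show the same order in both groups by chance alone, a share that was not estimated here. For 19 of the 68 tested members (27.9%) the 3 numbers stood in the same order in FP and in RR, against 27.1% of all tested genes. The 19 included Gng5 and Gnai3, highest in library 11, and Prkaca and Gna11, highest in library 16. Of the 7 members with an unadjusted p under 0.05 in limma, Gnb4 and Adcy9 were also among the 19. For Gna12, Gng10, Gng7, Pde7b and Rgs3 the order differed between groups.

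Partners of the machinery outside the 7 families were read from 5 lists of genes. Of 23 tested G protein-coupled receptors, 3 had an unadjusted p under 0.05 in limma, against 10.3% of all tested genes. At the adjusted threshold 1 rose and 0 fell, where 0.967% of all tested genes were called. This was Pth1r, at 328, 463 and 394 FPKM in FP against 95, 103 and 138 FPKM in RR, a 3.53-fold ratio with a log2 difference of 1.82 ± 0.29 (SE, 95% interval 1.16 to 2.48, limma adjusted p = 0.0279). The call held in the fit without RR 16 (limma adjusted p = 0.0444) and was lost in 5 of the 6 fits that left out 1 library, at adjusted p of 0.0574 without FP 11, 0.141 without FP 14, 0.175 without FP 16, 0.0893 without RR 11 and 0.113 without RR 14. Pth1r is also on the hypertrophic marker list. The other receptors with an unadjusted p under 0.05 in limma were Gper1, a receptor for estrogen, at 10.2, 14.3 and 9.01 FPKM in FP against 2.74, 2.78 and 6.69 FPKM in RR (limma adjusted p = 0.188), and Adora1, an adenosine receptor that couples to inhibitory alpha subunits, at 3.64, 5.32 and 5.26 FPKM in FP against 7.87, 8.30 and 14.4 FPKM in RR (limma adjusted p = 0.303). Gnas, the alpha subunit to which Pth1r couples, had a log2 difference of 0.08 on the deposited scale and a negative one after the rescaling, as given above. No difference between the changes of Pth1r and Gnas was tested.

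The other 4 lists had 0 genes past the threshold in either direction. The counts at an unadjusted p under 0.05 that follow stand against 10.3% of all tested genes. Of 19 tested cAMP effectors and partners of protein kinase A, 3 had an unadjusted p under 0.05 in limma. Akap7, an anchoring protein of the kinase, was at 3.24, 2.67 and 4.70 FPKM in FP against 7.20, 6.58 and 6.36 FPKM in RR (limma adjusted p = 0.328), and Akap13, another anchoring protein of the kinase, at 12.9, 17 and 15.0 FPKM in FP against 7.28, 7.70 and 11.7 FPKM in RR (limma adjusted p = 0.414). The groups of both genes were separate. The third was Rapgef3, the cAMP-gated exchange factor for Rap also called Epac1, at 0.894, 2.69 and 3.10 FPKM in FP and 2.75, 6.23 and 6.86 FPKM in RR (limma adjusted p = 0.475). Of 12 tested CREB, CRTC and SIK genes, 1 had an unadjusted p under 0.05. It was Sik2, a kinase that protein kinase A inhibits, at 2.27, 3.14 and 4.70 FPKM in FP against 7.64, 5.73 and 9.77 FPKM in RR, a log2 difference of -1.01 ± 0.31 (SE, limma adjusted p = 0.273). Crtc1, a CREB coactivator, overlapped at 8.22 to 17.6 FPKM in FP and 4.93 to 10.1 FPKM in RR.

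Among transcripts known to respond to cAMP, the groups overlapped for all tested genes but Ppargc1a, a coactivator of mitochondrial genes. It had 1.29, 1.10 and 1.12 FPKM in FP, against 1.46, 1.87 and 3.17 FPKM in RR, and an unadjusted p of 0.178 in limma. Of all tested genes 16% did not overlap between groups. Of 11 tested targets, 0 had an unadjusted p under 0.05 in limma, and the median log2 difference was -0.21, against 0.02 over all tested genes. The smallest p-values belonged to Dusp1, a phosphatase of MAP kinases, at 7.55, 4.21 and 7.13 FPKM in FP and 7.46, 15.0 and 7.96 FPKM in RR, and to Nr4a1, an orphan nuclear receptor, at 4.87, 5.24 and 2.8 FPKM in FP and 10.2, 6.57 and 4.01 FPKM in RR. Of 22 tested G protein regulators outside the RGS family, 2 had an unadjusted p under 0.05, against 10.3% of all tested genes. Grk5, a receptor kinase, was at 4.20, 5.72 and 5.65 FPKM in FP against 7.10, 10.8 and 12.7 FPKM in RR (limma adjusted p = 0.336), and Gpsm3, which binds inhibitory alpha subunits, at 0.202, 3.21 and 2.06 FPKM in FP against 3.38, 4.21 and 6.34 FPKM in RR (limma adjusted p = 0.456).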

How the data were processed

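Total RNA from laser-cut frozen sections was made into libraries with a SMARTer stranded kit for low inputs, per the labels' protocols. The deposited FPKM values were made with Bowtie2 2.2.8, TopHat2 2.1.1, Cuffdiff 2.2.1 and SAMtools 0.1.18 on build mm10, per the submitters' processing notes. For annotation, strand and scaling between libraries the sources used here give nothing. Values were tested as log2(FPKM + 1), which understates changes of low genes, by limma version 3.58.1 (R 4.3.3; linear fit and moderated statistics along an intensity trend, two-sided, FP minus RR, Benjamini-Hochberg) over the 14789 genes that averaged 1 FPKM or more. Ratios are of mean FPKM. The fit was also run on simulated data, with independent noise, no effect of library number and changes in well-expressed genes alone. That run cannot vouch for the fit on low members or on paired libraries. Depth was read from genes with 1 transcript of 1500 to 3000 bp, where 71.3% to 74.8% of low values were whole fragments within 0.1, against 20% by chance. The total number of fragments is unknown. Positions are from GENCODE M21 on mm10. The members, lists, classes, tests and alternatives were chosen with earlier results of these data known. Named members are the 3 highest and the 3 most different of each family plus a growth plate panel, and of each list all genes past the threshold or the 2 smallest p-values. Others, among them genes named as examples of a class, were chosen after their values were seen. Of the partner lists, 3 symbols (Ric8a, Grk2 and Grk3) were not found under those names.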

Additional observations from a re-analysis of the deposited data

How the results depend on the processing

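The count of members past the threshold was 0 higher and 0 lower in FP in the reported limma fit. It stayed at 0 in both directions under each alternative run but 1. With the library number as a random replicate block, 2 members passed, both higher in FP: Gna12 (limma adjusted p = 0.0433) and Gnb4 (limma adjusted p = 0.04996). With the number as a fixed replicate block none passed (smallest limma adjusted p = 0.0537, Gna12), and 271 genes passed in all, against 412 with the random block and 143 as reported. Deviations from the group mean correlated between same-numbered libraries at 0.319, 0.185 and 0.0890 for 11, 14 and 16. Across groups every library correlated best with its own number, and the random block estimated a correlation of 0.364. This is a hint of pairing from the data. The labels do not say that a number stands for 1 animal, so the reported fit does not pair the libraries. The count of 0 members depends on that choice, since the random block gave 2. Without an intensity trend 83 genes passed. Leaving out 1 library gave 42 to 85 genes, 0 members in either direction, and 0 to 1 partners (Pth1r) where 1 was reported. Added after seeing the data, fits without both libraries numbered 11, 14 or 16 gave 42, 8 and 20 genes, 0 members and 0 partners. The cause of these shifts in counts was not tested, beyond the fewer libraries of the last fits.

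Scaling each library without its most abundant genes moved the median log2 difference of all genes from 0.02 to -0.16 and of the members from -0.02 to -0.19, and split the calls into 68 higher and 88 lower, against 82 and 61. On the rescaled values Gna12 stood at 1.16 and Pde7b at -0.96, with limma adjusted p of 0.210 and 0.174. The sign of the log2 difference changed for 12 of the 68 tested members under this scaling, for 7 with quantile normalization and for 7 with library weights. None of these differences passed the test in the reported fit. Whether groups and class sums separate after this scaling was looked at after seeing the data. For the named members, 751 alternative values were computed, of which 735 moved by less than the spread within groups, 14 moved by more and 2 came past the threshold. The block, filter and trend settings leave a log2 difference unchanged by construction. Their values among the 735 could not move, so that count is no measure of stability. The smallest adjusted p of any member in limma ran from 0.0433 to 0.704 over the fits. Without RR 14, 0 of 64 tested members passed and 5 had an unadjusted p under 0.05.

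With 3 libraries a group and 1 fragment worth up to 0.296 FPKM on a 2000 bp transcript, members near 1 FPKM rest on a few fragments. Log2 differences well above 1 can also miss the threshold. That of Gna12 did at 1.38, and that of the hypertrophic marker Ibsp did at 3.08 (limma adjusted p = 0.0571).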
